A study of Mus musculus with 2 samples.

Results

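The genes described here act in negative feedback on ERK signalling and comprise 10 genes of the DUSP, Sprouty and SPRED families. They are the dual-specificity phosphatase genes Dusp1, Dusp2, Dusp4, Dusp5 and Dusp6, the Sprouty genes Spry1, Spry2 and Spry4, and the Sprouty-related genes Spred1 and Spred2. They were taken by name, as every probe set whose platform annotation gave exactly 1 mouse gene symbol and that symbol was on the list. All 10 genes were found, with 25 of the 45037 probe sets on the array and among 18193 named genes. The cells were primary mouse embryonic fibroblasts (MEFs) prepared from whole E13.5 embryos of C57BL/6 mice and used young, at passage 2. One culture received GapmeR Control, a locked nucleic acid oligonucleotide without a target (control cells), and the other received GapmeR AK156230, an oligonucleotide of the same kind that recruits RNase H to the long noncoding RNA AK156230 (knockdown cells, as labelled). Total RNA of each was hybridized to 1 Affymetrix array, so that the comparison of knockdown with control cells rests on 2 arrays, with no replicate check and no p-value. The study asked which genes accompany the senescence-like state that it describes after loss of this RNA.

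ERK is the last kinase of the cascade that carries growth factor signals from receptor tyrosine kinases through RAS, RAF and MEK. Active ERK enters the nucleus and switches on, among others, the genes that restrain it, so that a signal is followed by its own attenuation. Dual-specificity phosphatases remove the activating phosphates from ERK and related kinases, whereas Sprouty and SPRED proteins act further upstream, between the receptor and RAF. In fibroblasts several of these genes are switched on within minutes to hours of serum or growth factor addition, and their transcripts are widely read as a sign of recent ERK activity.

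The values were MAS5 signals, a summary of the probes of a probe set on a linear scale, as deposited. The median signal over all probe sets was 54.8 in control cells and 50.95 in knockdown cells, and the median log2 ratio of knockdown over control cells was -0.07 over all named genes. Where a gene had several probe sets, the one with the highest mean log2 signal stood for the gene. The spread of log2 ratios was taken between the 2 brightest probe sets of a gene. Only probe sets at or above the array's median on the brighter array entered, so that dim ones are not covered. The spread was 0.28 (SD of a single probe set, 5112 genes). This value holds probe-to-probe error on these 2 arrays and not the spread between cultures. No probe set was annotated to AK156230 in the annotation used, and the degree of knockdown could not be read from the arrays.

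In knockdown cells the 3 families differed in their values. All 5 phosphatase genes had higher signals, and Dusp4 and Dusp6 were higher by 2.82-fold and 2.71-fold. Each of the 3 Sprouty genes and 2 SPRED genes differed between the 2 arrays by at most 1.28-fold at its brightest probe set. Over the 10 genes, 2 passed 2-fold upwards and 0 downwards, against 1.59% and 3.85% of all named genes. At 1.5-fold, 4 of the 10 were higher and 0 were lower, against 5.48% and 9.69% of all named genes. The median log2 ratio was 0.17 over the 10 genes, 0.84 over the phosphatases (1.14 over the 4 without the dim Dusp2), -0.08 over the Sprouty genes and 0.004 over the SPRED genes. The difference between the families is a description of these arrays and could not be tested.

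**Figure D1:**
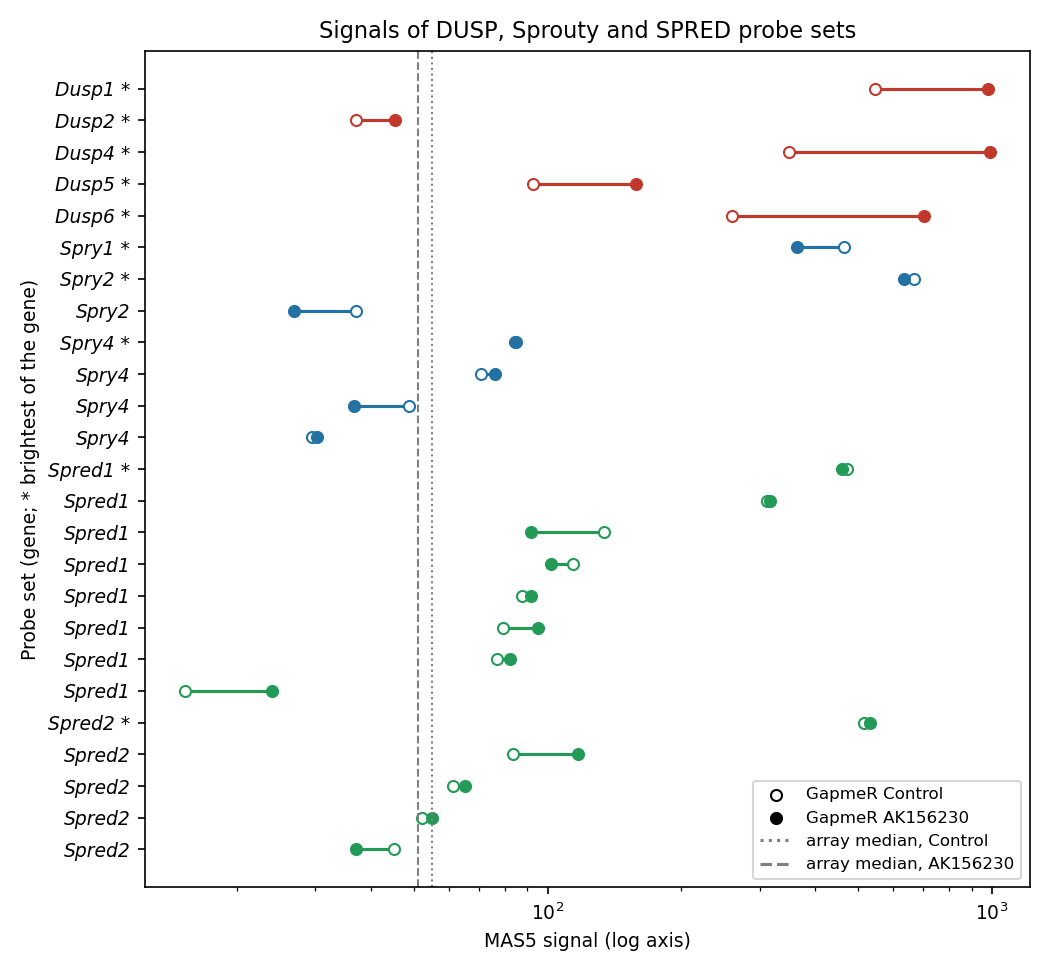
MAS5 signal on a log axis of each of the 25 probe sets of the 10 genes, with an open point for control cells, a filled point for knockdown cells and a line joining them; vertical lines mark the median signal of each array. The filled points of the 5 phosphatase probe sets all lie to the right of the open ones, most of all for Dusp4 (350.1 to 987.55) and Dusp6 (259.95 to 704.79), while most points of the Sprouty and SPRED probe sets lie close together.

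The largest difference among the 10 genes was in Dusp4, which encodes a nuclear phosphatase of ERK that is itself induced by ERK. Its signal was 350.1 in control cells and 987.55 in knockdown cells, 2.82-fold higher. The signal was above the array's median in both cultures, and by its ratio Dusp4 was number 95 of the 18193 named genes counted from the highest. The gene lies on mouse chromosome 8 of GRCm38.p6 from 34807610 to 34819894. Dusp6 encodes a cytoplasmic phosphatase with a marked preference for ERK, and lies on chromosome 10 from 99263231 to 99267489. Its signal was 259.95 in control cells and 704.79 in knockdown cells, a log2 ratio of 1.44, which placed it at number 104. Both genes were past 2-fold and neither was past 3-fold.

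Dusp1 and Dusp5 were also higher, but by less than 2-fold. Dusp1 encodes a nuclear phosphatase that acts on JNK and p38 as well as on ERK and is induced by many stresses in addition to growth factors. The Dusp1 signal was 545.56 in control cells and 978.05 in knockdown cells, 1.79-fold higher. By its ratio it was number 452 of all named genes. Dusp5 encodes a nuclear phosphatase specific to ERK, which it also holds in the nucleus. Its signal was 92.5 in control cells and 158.44 in knockdown cells, 1.71-fold higher, at number 550. Both log2 ratios, 0.84 and 0.78, exceeded the SD of 0.28 between probe sets of a gene. Dusp2 encodes a nuclear phosphatase best known from activated lymphocytes. It had a signal of 37.02 in control cells and 45.37 in knockdown cells, under the array's median in both, so that its log2 ratio of 0.29 is that of a dim probe set. Each of the 5 phosphatase genes was measured by 1 probe set, and none of these ratios could be compared with a second probe set of the same gene.

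The sequences upstream of 3 phosphatase genes whose signals were higher by 1.5-fold or more are given for their promoter motifs. They are the 250 bases before the annotated start in RefSeq on GRCm38.p6, read 5′ to 3′ along the gene. Dusp1 lies on the minus strand of chromosome 17 from 26505591 to 26508472, with the upstream bases at chr17:26508473-26508722. Dusp5 lies on the plus strand of chromosome 19 from 53529145 to 53541809, with the upstream bases at chr19:53528895-53529144. For Dusp6, on the plus strand, they are at chr10:99262981-99263230. Capitals mark matches to the motifs listed after the sequences, other than the CRE core.
Dusp1: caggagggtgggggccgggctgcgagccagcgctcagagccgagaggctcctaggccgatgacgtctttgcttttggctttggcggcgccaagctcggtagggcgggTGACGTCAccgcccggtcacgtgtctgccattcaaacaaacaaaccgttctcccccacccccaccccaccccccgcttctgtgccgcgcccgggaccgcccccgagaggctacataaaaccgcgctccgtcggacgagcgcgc
Dusp5: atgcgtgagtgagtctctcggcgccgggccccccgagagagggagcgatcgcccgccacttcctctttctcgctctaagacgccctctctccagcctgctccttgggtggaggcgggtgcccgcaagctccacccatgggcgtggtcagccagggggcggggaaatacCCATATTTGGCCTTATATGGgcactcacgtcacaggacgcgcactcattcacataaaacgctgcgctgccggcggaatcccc
Dusp6: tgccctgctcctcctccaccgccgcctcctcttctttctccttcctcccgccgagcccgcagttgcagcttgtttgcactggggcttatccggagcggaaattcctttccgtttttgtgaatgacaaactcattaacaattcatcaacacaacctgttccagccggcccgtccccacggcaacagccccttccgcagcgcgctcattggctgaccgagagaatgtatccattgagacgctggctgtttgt

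The 6 motifs were searched on both strands in the window from 250 bases before to 50 after the start, the TATA box on the gene's strand alone. They were the ETS core CCGGAA, the AP-1 site TGANTCA, the cyclic AMP response element (CRE) TGACGTCA, the CRE core TGACG, which every CRE also holds, the CArG box bound by serum response factor, and the TATA box TATAAA. A motif was counted only in the form searched, and the ETS core only as CCGGAA, so that other forms of a site were not seen. Of the 10 genes 8 matched a promoter, all but Dusp4 and Spry4. The Dusp1 promoter held a CRE at -143 to -136 from the start, a motif found in 1.79% of 32851 promoters. The Dusp5 promoter held 2 adjacent CArG boxes, at -82 to -73 and -72 to -63, and 1.63% of all promoters held at least 1. In the forms searched, none of the 6 motifs was found in the promoters of Dusp6, Spry1 and Spred1. The Spry2 promoter held an ETS core at 34 to 39 after the start, as did 14.9% of all promoters. The CRE core stood in the promoters of Dusp1, Dusp2, Dusp5 and Spred2, and in 20.8% of all. The AP-1 site (7.81% of all) and the TATA box in these exact letters (8.32%) were found in none of the 8. The genes with the higher ratios did not share a motif of this set other than the CRE core in Dusp1 and Dusp5, and the matches are letters in a window, with no measurement of binding.

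Sprouty proteins are membrane-associated inhibitors that are phosphorylated after receptor activation and then block RAS and RAF activation. Spry1, on chromosome 3 from 37639947 to 37644599, had a signal of 465.41 in control cells and 364.84 in knockdown cells, 1.28-fold lower. This log2 ratio of -0.35 was the lowest of the 10 genes and came from a single probe set. Spry2, on chromosome 14 from 105891947 to 105896819, had nearly equal signals of 666.89 and 632.58 at its brightest probe set. A second, dim probe set of Spry2 read 36.96 in control cells and 26.87 in knockdown cells, a log2 ratio of -0.46. Spry4 was measured by 4 probe sets, the brightest at 84.91 and 84.25. The others had log2 ratios of 0.10, -0.41 and 0.04, the last 2 of them at signals under the array's median. Over the 7 Sprouty probe sets, 2 had log2 ratios above 0 and all lay within 1.5-fold. Most named genes did so too, as 5.48% were higher and 9.69% lower by 1.5-fold or more. Of 18193 named genes 7487 were above 0. With both arrays scaled to the same median, the log2 ratios of Spry2 and Spry4 were 0.03 and 0.09, so that no direction can be given for these genes; that of Spry1 was -0.25.

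**Figure D2:**
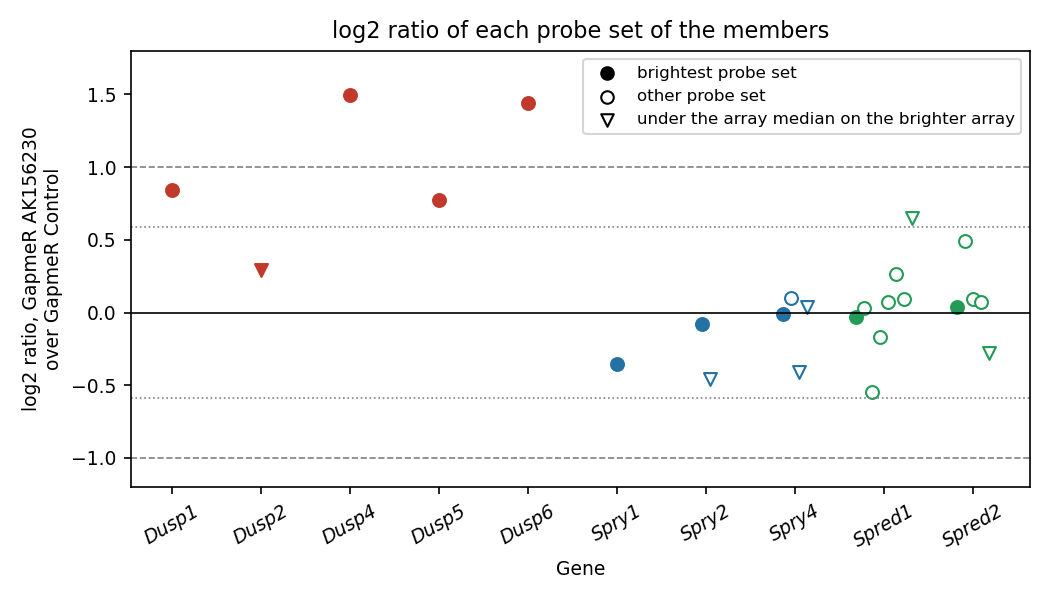
log2 ratio of knockdown over control cells for each probe set of the 10 genes, the brightest of a gene filled and those under the array's median as triangles; dashed lines stand at 2-fold and dotted lines at 1.5-fold. Dusp4 and Dusp6 lie above 2-fold, Dusp1 and Dusp5 between 1.5-fold and 2-fold, and 19 of the 20 Sprouty and SPRED probe sets within 1.5-fold. Most named genes also lie within 1.5-fold, as 5.48% were higher and 9.69% lower by 1.5-fold or more.

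SPRED proteins carry a Sprouty-like domain and bring the RAS inhibitor neurofibromin to the membrane. Spred1 spans 61.2 kb on chromosome 2 from 117121071 to 117182279, and had signals of 470.6 in control cells and 460.72 in knockdown cells at its brightest probe set. Its 8 probe sets had log2 ratios from -0.54 to 0.65, of which 5 were above 0. The highest was at the dimmest probe set, with signals of 15.26 and 23.93, and the lowest at one whose identifier marks possible cross-hybridization, with 133.83 and 91.73. The mean over the 8 was 0.05. Spred2 spans 99.6 kb on chromosome 11 from 19924442 to 20024026. The brightest of its probe sets read 516.41 in control cells and 530.21 in knockdown cells. The 5 probe sets of Spred2 had log2 ratios from -0.28 to 0.49 and a mean of 0.08. The brightest probe sets of both SPRED genes thus differed by less than the SD of 0.28 between probe sets. The 2 SPRED genes were the longest of the 10, as the phosphatase genes span from 2.22 kb (Dusp2) to 12.7 kb (Dusp5) and the Sprouty genes from 4.65 kb (Spry1) to 15.1 kb (Spry4).

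**Figure D3:**
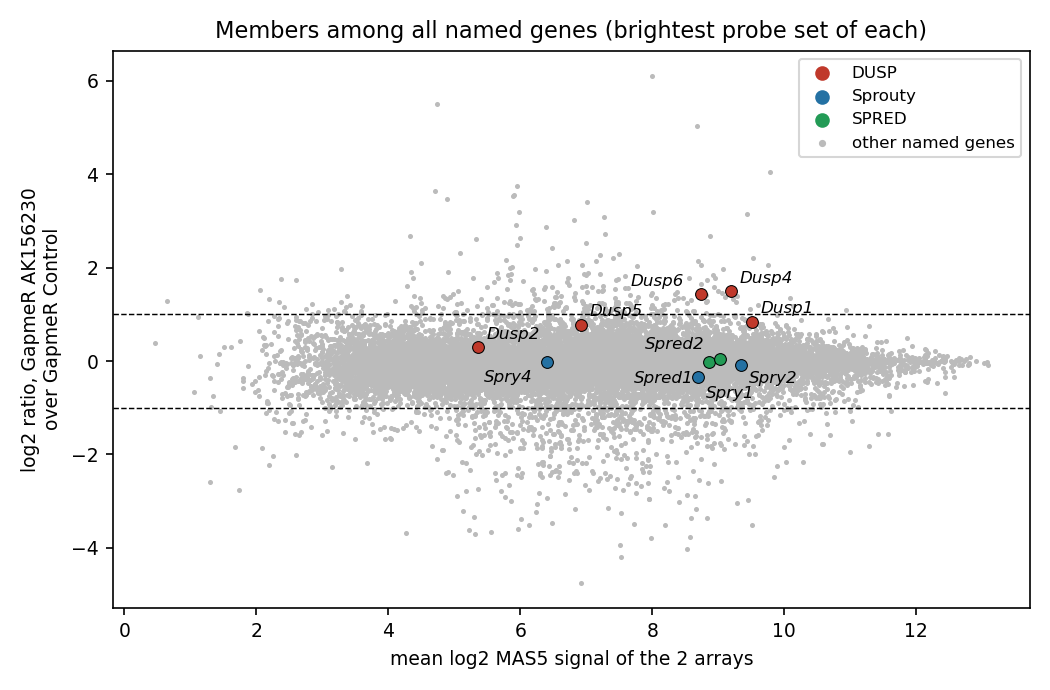
log2 ratio of knockdown over control cells against the mean log2 signal of the 2 arrays for all 18193 named genes (grey, brightest probe set of each), with the 10 genes coloured by family and dashed lines at 2-fold. Dusp4 and Dusp6 lie above the upper line at a mean signal where most genes lie near 0, and the Sprouty and SPRED genes lie within the main cloud.

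Under the 7 alternatives that change a ratio, that of Dusp4 ranged from 1.43 to 1.60 and that of Dusp6 from 1.36 to 1.54, above 2-fold in each; 3 of the 7 concern the choice of probe sets and cannot change a gene that has 1 bright probe set. Dusp1 ranged from 0.82 to 0.95 and Dusp5 from 0.65 to 0.88, below 2-fold in each. Dusp2, which was left out by the minimum on signal, ranged from 0.18 to 0.40 over the other 6.

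**Figure D4:**
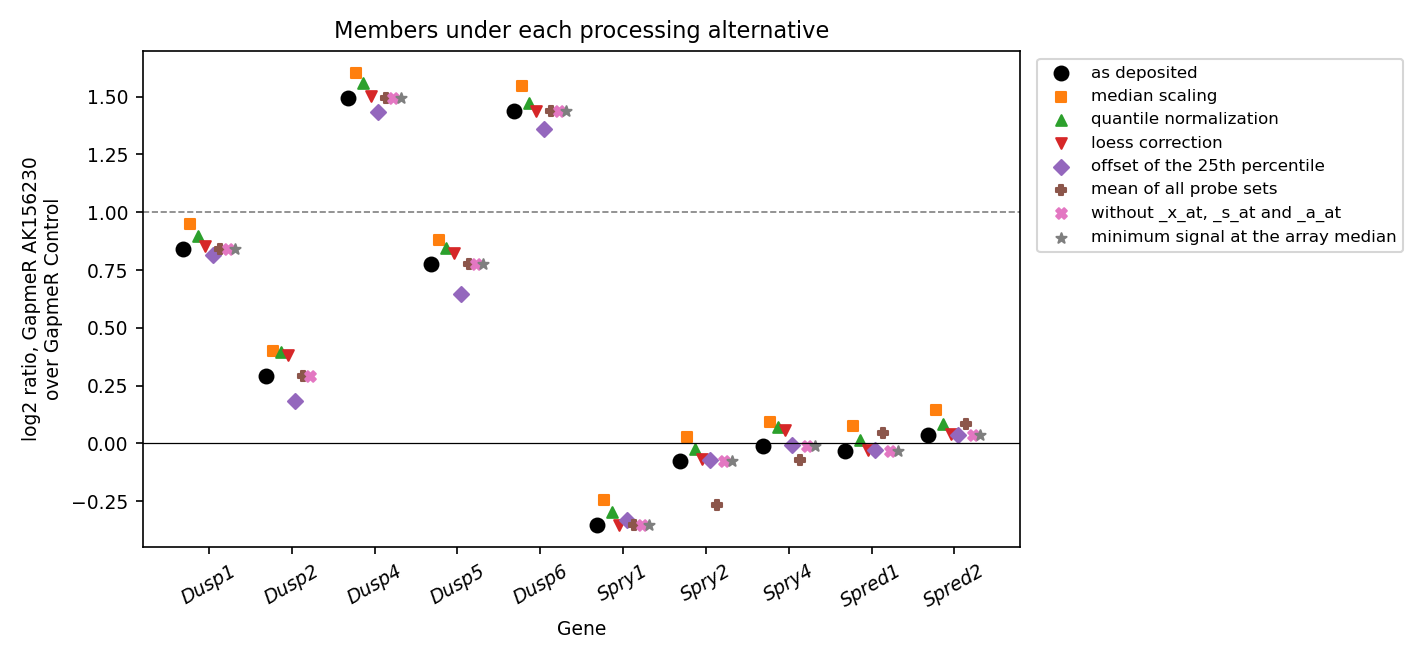
log2 ratio of knockdown over control cells of the brightest probe set of the 10 genes in the signals as deposited (black) and under each processing alternative (coloured symbols; for the mean of all probe sets, the mean), with a dashed line at 2-fold. Every symbol of Dusp4 and Dusp6 lies above the line, from 1.36 to 1.60, and those of Spry2, Spry4 and Spred1 lie on both sides of 0.

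Of 10 measured genes on the list of other MAPK phosphatases, 0 passed 2-fold upwards and 0 downwards at the brightest probe set, close to the shares of 1.59% and 3.85% of all named genes, and the median log2 ratio was -0.27. Dusp7, a cytoplasmic relative of Dusp6, had signals of 185.76 in control cells and 189.28 in knockdown cells. The probe sets of Dusp9, the remaining cytoplasmic relative, did not agree: the brightest read 132.47 and 145.71, while dimmer ones read 44.12 and 94.95, and 31.25 and 76.15, log2 ratios of 1.11 and 1.29. Without probe sets ending in _x_at, _s_at or _a_at Dusp9 was past 2-fold, and 1 gene of this list was higher. Dusp8, Dusp10 and Dusp16, which act on JNK and p38, had log2 ratios of -0.36, -0.19 and -0.42 at their brightest probe sets, and of 0.53, 0.62 and -0.68 at the next. Dusp3, the gene of this list with the highest mean signal, read 701.81 and 914.09, a log2 ratio of 0.38, with -0.03 and 0.02 at its other probe sets. Among 14 other feedback inhibitors of receptors and RAS, 0 passed 2-fold upwards and 1 downwards, with a median of -0.11. Spred3, the third SPRED gene, was measured by 1 probe set, with signals of 111.12 and 183.7. Its log2 ratio was 0.72, unlike those of the brightest probe sets of Spred1 and Spred2. The highest among all probe sets of Spred1 and of Spred2 were 0.65, at a dim probe set, and 0.49. The lower gene was Socs3, a cytokine signalling inhibitor, with 254.76 and 85.66, and -0.03 and -1.04 were the log2 ratios of its other probe sets.

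Genes upstream of ERK differed in both directions on the same arrays. Over all named genes, 1.59% were higher and 3.85% lower by 2-fold or more. A short list with 0 genes past 2-fold is close to these shares. Of 13 measured genes listed as FGF and EGF family ligands, not all of them of these families, 2 passed 2-fold upwards and 0 downwards. They were Ereg, which encodes epiregulin (67.3 in control cells and 240.21 in knockdown cells), and Hbegf, which encodes heparin-binding EGF-like growth factor (343.19 and 886.44). The median of that list was -0.11. Of 15 genes listed as growth factor receptors, not all of them such receptors, 1 was higher and 3 were lower. The higher 1 was the ephrin receptor gene Epha2 (512.6 and 1174.48). The lower 3 were the PDGF receptor genes Pdgfra (1038.96 and 283.31) and Pdgfrb (1350.72 and 488.64) and the collagen receptor gene Ddr2 (1346.66 and 446.88). Among 12 adaptors, RAS genes and RAS activators, Rasgrp3 (53.15 and 305.18) and Rasgrp1 (31.49 and 105.29), which encode RAS exchange factors, were higher, and the adaptor gene Gab2 (208.28 and 40.79) was lower. Rasgrp1 and Gab2 rested on a single probe set, as the other 3 of Rasgrp1 had log2 ratios from -0.12 to 0.23 and the other 2 of Gab2 -0.05 and -0.13. None of 11 measured RAF, MEK and ERK kinases and scaffolds was past 2-fold, from -0.83 to 0.22 with a median of -0.19, among them Lamtor3, a scaffold of MEK and ERK on endosomes (1330.59 and 1164.81). Of 9 JNK and p38 kinases none was past 2-fold, and Mapk14, which encodes p38 alpha, read 794.55 and 1128.97 at its brightest probe set. Its other 5 probe sets had log2 ratios from -0.25 to 0.29, and the mean of all was 0.13.

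Of 22 measured ERK-dependent transcription targets outside the 10 genes, 4 passed 2-fold upwards and 0 downwards, against 1.59% and 3.85% of all named genes. Of the 22, 16 had log2 ratios above 0, against 7487 of all 18193 named genes, and the median was 0.32. The 4 were Lif, a cytokine (95.6 in control cells and 318.74 in knockdown cells), Egr2, an early growth response factor (48.27 and 139.84), Phlda1 (485.68 and 1052.92) and Fosl1, an AP-1 subunit (192.06 and 406.97). A second probe set of Lif had a log2 ratio of 0.09, of Egr2 0.90 and of Fosl1 0.95. At their brightest probe sets Etv4, Etv5, Egr3 and Emp1 were at -0.015, -0.13, -0.29 and -0.23, and Ccnd1 at 0.03. The 10 genes and all lists were chosen with earlier results of these arrays known, and the counts of the lists are no independent support for the phosphatases.

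**Figure D5:**
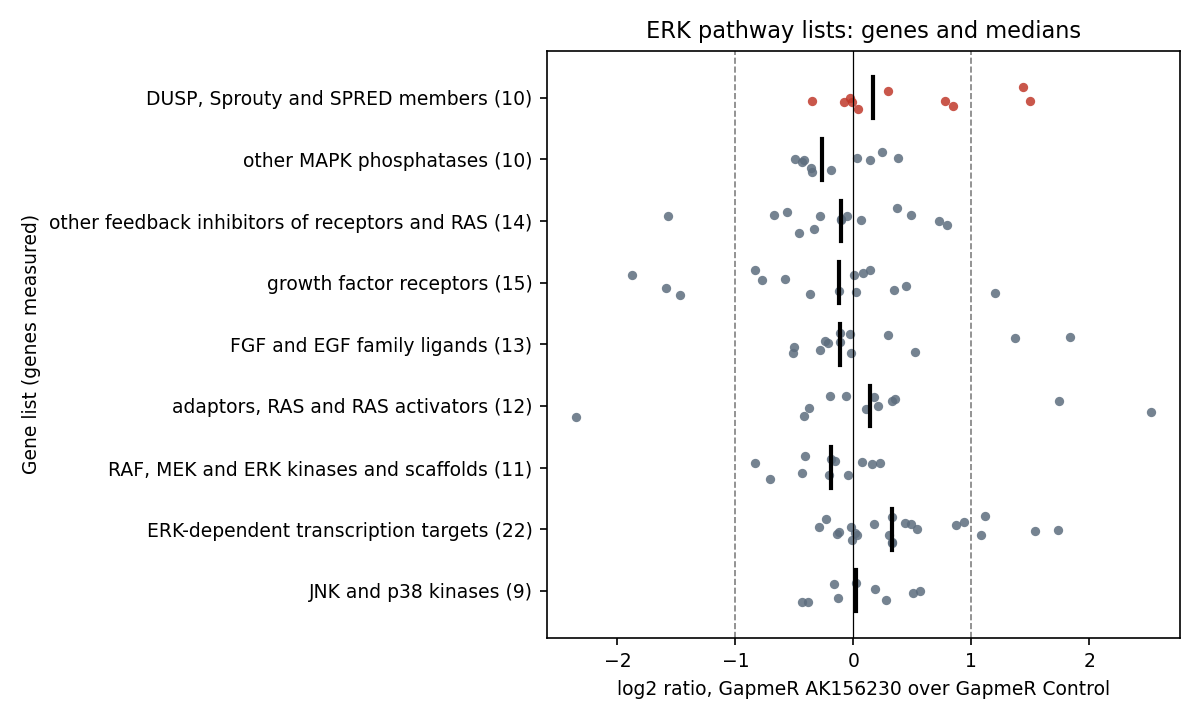
log2 ratio of knockdown over control cells for the brightest probe set of each gene of the 10 (red) and of 8 lists of the ERK pathway and related kinases (grey), with a black bar at the median of each list and dashed lines at 2-fold. The median is 0.17 for the 10 genes and 0.32 for the transcription targets, and lies between -0.27 and 0.14 for the other 7 lists.

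Markers of cell types also differed between the 2 cultures. For all named genes the shares past 2-fold were 1.59% upwards and 3.85% downwards. Of 12 fibroblast markers 4 passed 2-fold downwards and 0 upwards, among them Pdgfra and Col3a1 (4711.84 and 1599.46). The summed signal of the 12 was 42572.1 in control cells and 30301.8 in knockdown cells, and their median log2 ratio was -0.79. Among the other 8, all within 2-fold, Dcn, S100a4, Vim and Postn were at 0.06, -0.02, -0.09 and -0.20. Fn1, Col1a2, Thy1 and Col1a1 were at -0.34, -0.67, -0.91 and -0.99. Of 11 genes listed as keratinocyte markers, not all of them particular to keratinocytes, 2 were higher. They were Dsp (39.3 and 319.21) and Krt18 (126.94 and 298.63). The 11 had summed signals of 714.8 and 1118.1 and a median log2 ratio of 0.04. The other keratinocyte markers were within 2-fold, among them the basal keratin genes Krt5 and Krt14 at 0.01 and -0.40. Of 10 genes listed as skeletal muscle markers, not all of them particular to skeletal muscle, 2 were higher. They were Chrna1 (39.66 and 418.27) and Tnnt2 (59.74 and 250.21). The 10 had summed signals of 1123.0 and 1961.1 and a median of 0.16. The other probe sets of Tnnt2 had log2 ratios of 1.92 and -0.34. Of the 10 genes 7 had log2 ratios above 0, among them Acta1 at 0.89, while Myod1, Myh3 and Des were at -0.76, -0.59 and -0.29. Of 9 leukocyte markers 2 were higher, Cd68 (108.03 and 274.59) and Cd14 (95.25 and 225.4), with summed signals of 1426.6 and 1451.7, while the median was -0.26 and Itgam, Adgre1 and Lyz2 were at -0.92, -0.56 and -0.46. Of 8 endothelial markers Kdr alone was past 2-fold (44.54 and 90.91), with summed signals of 239.8 and 291.6 and a median of 0.05. Only 2 of the 8 reached the array's median signal on the brighter array. Log2 ratios were above 0 in 5 of the 8, while Tie1, Tek and Pecam1 were at -0.49, -0.42 and -0.28. No marker was at 0, as the lowest signal on either array was 1. What part these markers' cell types had in the values of the phosphatase genes was not tested, and more cells of a type cannot be told apart from more RNA per cell.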

How the data were processed

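RNA of young MEFs at passage 2 was measured on 1 Affymetrix array per group (GapmeR Control and GapmeR AK156230). The deposited values are probe set intensities that the authors computed with MAS5 and scaled per array. Neither the version nor the scaling target is stated in the labels or methods, and detection calls were not analysed here. MAS5 signals of dim probe sets are uncertain, and the number of arrays limits the precision. The methods name a porcine array; the labels give mouse RNA, and the mouse platform annotation was used. It gave 1 symbol for 34945 probe sets, several for 932 and none for 9160, and symbols were updated through the Entrez ID for 34741. Upstream sequences and positions were from RefSeq of GRCm38.p6, the mouse build named in the study's own annotation.

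Ratios were taken as log2 of GapmeR AK156230 over GapmeR Control, without an offset, and counted at 2-fold, the threshold of the study, and at 1.5-fold. The methods' test for groups of arrays could not be run on 1 array per group, so no test was run. The 10 genes and all lists were chosen with earlier results of these data known. Named genes were the 10 with every probe set and, of each other list, up to 4 (markers, 2) past 2-fold at or above the array's median on the brighter array, or otherwise the gene with the highest mean signal. Dusp7, Dusp8, Dusp9, Dusp10, Dusp16, Spred3, Etv4, Etv5, Egr3, Emp1 and Ccnd1 were named after their values were seen. So were the markers Dcn, S100a4, Vim, Postn, Fn1, Col1a2, Thy1, Col1a1, Krt5, Krt14, Acta1, Myod1, Myh3, Des, Itgam, Adgre1, Lyz2, Tie1, Tek and Pecam1. Of 179 entries on the lists 166 were measured. Alternatives were quantile normalization, scaling of both arrays to 1 median, loess on mean signal (span 0.3), 24.33 added to every signal (their 25th percentile), the 1.5-fold and a 3-fold threshold, the mean over a gene's probe sets, leaving out probe sets ending in _x_at, _s_at or _a_at, and a minimum at the array's median. The counting was tested on simulated data. Python 3.11.15 with numpy 2.4.6, pandas 2.3.3, statsmodels 0.14.6 and matplotlib 3.10.9 was used.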

Additional observations from a re-analysis of the deposited data

How the results depend on the processing

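The counts over the 10 genes changed by more than 1.5 times with the threshold alone. At 1.5-fold 4 genes and 5 probe sets were higher, and at 3-fold 0 genes and 0 probe sets, against 2 and 2 at 2-fold. The median log2 ratio of the 10 genes ranged from 0.04 with the minimum on signal, which left out Dusp2, to 0.27 with arrays scaled to the same median. That of the phosphatases was 1.14 with the minimum on signal. Without probe sets ending in _x_at, _s_at or _a_at, Tnnt2 had a log2 ratio of -0.34 and Gab2 -0.05, from another probe set. With the mean of all probe sets, Gab2 was at -0.84, Socs3 at -0.88, Lif at 0.91 and Rasgrp1 at 0.46, all within 2-fold, and the median of the other MAPK phosphatases was 0.01. With the offset Kdr was within 2-fold, at 0.74. Fosl1 ranged from 0.99 to 1.19. Epha2 was not measured without _a_at probe sets. No paired analysis was possible because each group had 1 array, and for the same reason no array could be left out. Depth in the sense of counts does not apply to intensities; Dusp2 and 5 further probe sets of the 10 genes were under the array's median on both arrays, where MAS5 ratios are least certain.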
